A study of Rattus norvegicus with 6 samples.

Results

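A small group of nuclei in the rat ileum, here called the Habp2 Gfra4 Lgr5 nuclei, was defined by 7 genes: Habp2, Gfra4, Kif19, Samd5, Cfap210, Pkhd1 and Defb51. A nucleus was a member when it held at least 1 UMI (a unique molecular identifier, 1 counted RNA molecule) of at least 3 of these genes and passed the study's limits of at least 1200 UMIs, at least 500 genes and at most 5% mitochondrial UMIs. Of 40970 passing nuclei, 1218 (2.97%) were members. The ileum came from wild-type male Sprague-Dawley rats of 6 weeks. In the SAP group (severe acute pancreatitis, 3 rats), 3% sodium taurocholate, 0.1 mL per 100 g of body weight, was infused backwards into the pancreatic duct, and in the CON group (3 rats) the abdomen was opened without infusion. Both groups had water but no food, and all 6 rats were killed at 24 h, so the controls also carried surgery and fasting. Each rat gave 1 single-nucleus RNA library, and all 6 libraries are labelled as 1 batch. A bile salt infusion is a model of pancreatitis with a chemical cause, and the ileum is compared at some distance from the injured organ. Tissue with visible Peyer's patches was avoided. Lymphoid nuclei were nevertheless unevenly spread: at 1200 UMIs, 854 passing nuclei of SAP 3 held at least 3 B cell markers, against 4 to 211 in the other libraries.

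The crypts of the small intestine are renewed from their base. Lgr5, a receptor for R-spondins that raises the response to Wnt ligands, marks the dividing stem cells there, and Paneth cells sit between them, secrete alpha-defensins, lysozyme and phospholipase A2, and supply the stem cells with Wnt3 and Notch ligands. Among the genes of the rule, Habp2 encodes a secreted serine protease that binds hyaluronan, Gfra4 a co-receptor of the GDNF family, Kif19 a kinesin motor, Cfap210 a protein of cilia and flagella, Pkhd1 the ciliary membrane protein fibrocystin, and Defb51 a beta-defensin. These genes are not the usual marks of either crypt cell, and the question was what else the nuclei that carry them express, how many each library held, and whether SAP rats differed from CON rats.

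Libraries differed in size before any comparison. CON 1, CON 2 and CON 3 gave 9246, 6260 and 8414 passing nuclei with 28771508, 11402966 and 19738010 UMIs. SAP 1, SAP 2 and SAP 3 gave 3189, 5968 and 7893 passing nuclei with 5549260, 15490877 and 19435288 UMIs. CON 1, CON 2 and CON 3 held 393, 267 and 344 members, SAP 1, SAP 2 and SAP 3 held 40, 57 and 117, and their summed UMIs ran from 69432 in SAP 1 to 4176667 in CON 1. The member sums of CON 1 were deeper per nucleus than the rest, because 100 of the 129 members above 10000 UMIs lay there and its median member held 3417 UMIs, against 1553 to 2910 in the other 5 libraries. Paneth cell RNA was found in nuclei of other types in CON 1 and SAP 1: after thinning each nucleus at random to 1200 UMIs, a UMI of the Paneth cell protease gene Mmp7 was found in 21.3% and 23.1% of nuclei classed by T cell markers in those libraries, and in at most 2.78% in the other 4. For this reason, SAP and CON values of Paneth cell genes are also given without CON 1 and SAP 1. The T cell marker shares of SAP 1 and SAP 2 rest on few nuclei, since all immune and stromal classes held 37 and 7 there. The libraries shared 33985 barcode names over their 15 pairs, since the names are running numbers, and none of these pairs had the same UMIs and genes.

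The 7 genes were spread unevenly over the members. Gfra4 was found in 992 members (81.4%), Habp2 in 911 (74.8%), Kif19 in 861 (70.7%), Samd5 in 798 (65.5%), Pkhd1 in 580 (47.6%), Cfap210 in 520 (42.7%) and Defb51 in 165 (13.5%). To read a gene where it had not chosen the nuclei, each was measured in nuclei that held at least 3 of the other 6. Gfra4 was then present in 73.5% of such nuclei, against 3.56% of the others, Habp2 in 66.1% against 3.56%, Kif19 in 61.8% against 2.74%, and Defb51 in 11.6% against 0.249%. These shares describe the genes' joint presence and were not tested, since the rule was drawn from the same data. All passing nuclei fell off steeply with the number of genes held: 35115 held none, 3964 held 1, 673 held 2, 507 held 3, 376 held 4, 222 held 5, 99 held 6 and 14 held all 7.

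Most nuclei near the threshold resembled the members less as they held fewer of the genes. Thinned to 1200 UMIs per nucleus, Lgr5 stood at 153 CPM (counts per 1000000 UMIs, mean of 6 libraries) in nuclei with 2 of the genes, just outside the threshold, and at 265 CPM in nuclei with 3, just inside it. Its level was 54.7 CPM with 1 gene and 370 ± 182 CPM (SD, n = 6 libraries) with 5 to 7. Slc39a10, a zinc importer, followed the same order, with 163 CPM at 1 gene, 681 CPM at 2, 1232 CPM at 3 and 1519 CPM at 5 to 7. Olfm4 marks stem and early progenitor cells of the crypt in many mammals. Its mean over 6 libraries had no such order, at 220 CPM with 2 genes and 174 CPM with 3. The CON mean of Olfm4 fell from 315 CPM with no gene to 122 CPM with 5 to 7, and the SAP mean went from 169 to 362 CPM. Top2a, a topoisomerase of dividing cells, went from 117 CPM with no gene to 28.6 CPM with 5 to 7. At 5 to 7 genes Top2a was 0 in each SAP library, with a CON mean of 57.3 CPM. SAP values at 5 to 7 genes rest on few nuclei. As a background for the rule, nuclei with at least 3 T cell markers met it in 13 of 2541 cases at 1200 UMIs (0.512%, exact 95% interval 0.273 to 0.873%), and nuclei with at least 3 smooth muscle markers in 5 of 1038 (0.482%). Without thinning, nuclei of the immune and stromal classes met it in 14 of 516 cases in CON 1 (2.71%), 1 of 226 in CON 2 (0.442%) and 6 of 418 in CON 3 (1.44%), and in 0 of 37, 0 of 7 and 1 of 762 (0.131%) in SAP 1, SAP 2 and SAP 3. More epithelial than immune or stromal markers were found in 1060 members (87.0%). The same held for 34471 of all 40970 passing nuclei, so this share did not set the members apart. No doublets were removed.

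**Figure D1:**
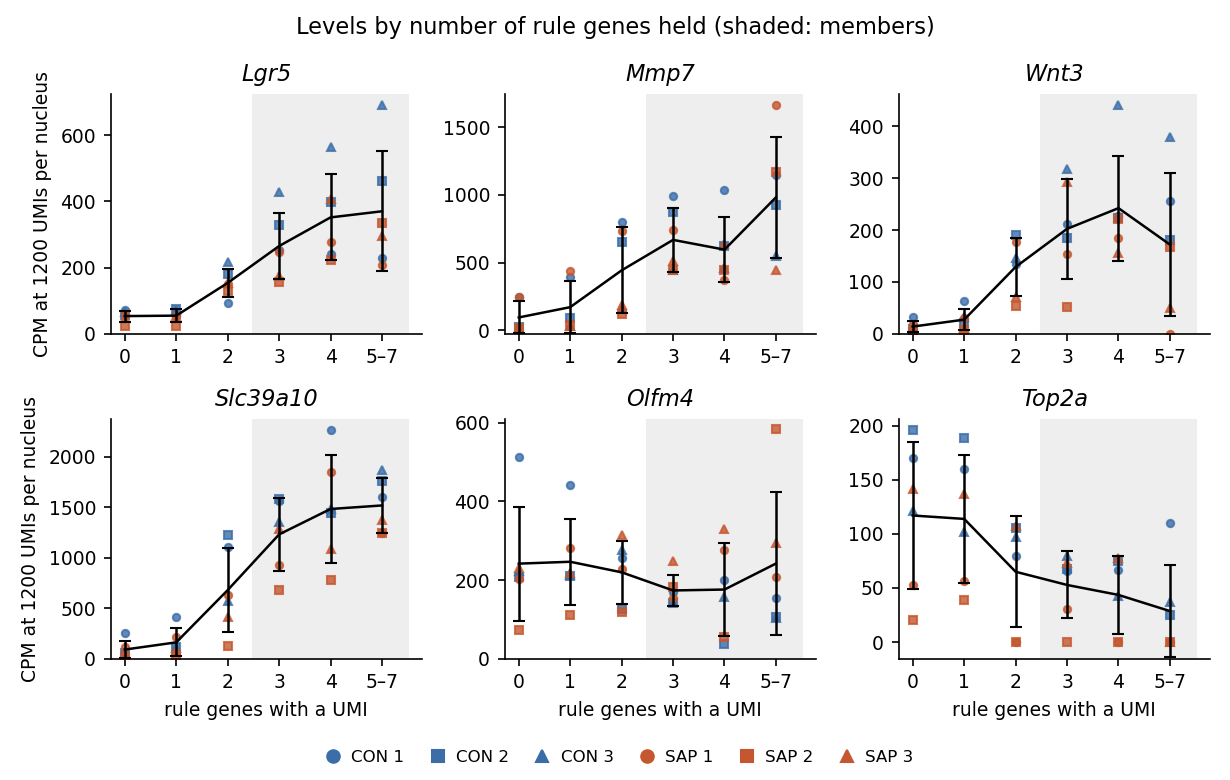
Level of 6 genes, in CPM at 1200 UMIs per nucleus on the vertical axis, against the number of rule genes with a UMI on the horizontal axis; points are libraries (CON and SAP), lines join the means of 6 libraries with SD bars, and shading marks the members. Lgr5, Mmp7, Wnt3 and Slc39a10 stood higher with 3 or more genes than with 0 or 1. The 6-library mean of Olfm4 stayed near 174 to 247 CPM, while its CON mean fell with the number of genes. The mean of Top2a was lowest at 28.6 CPM with 5 to 7 genes, where each SAP value was 0.

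The members carried Lgr5 together with Paneth cell genes. Lgr5 stood at 244, 396 and 560 CPM in the members of CON 1, CON 2 and CON 3 and at 250, 205 and 278 CPM in those of SAP 1, SAP 2 and SAP 3, after thinning. All 6 values lay above the 54.7 ± 16.4 CPM (SD, n = 6) of all other nuclei. For comparison, 2 sets of crypt nuclei were drawn from the non-members. The Mmp7 comparison nuclei (1635, at least 2 UMIs of Mmp7) had 122 ± 75.1 CPM of Lgr5. The Olfm4 comparison nuclei (2830, at least 2 UMIs of Olfm4, none of Mmp7 or of the rule genes) had 236 ± 56.2 CPM. A Lgr5 UMI was found in 28.0% ± 8.13 of members at 1200 UMIs, in 20.7% ± 3.77 of Olfm4 comparison nuclei, in 5.39% ± 1.63 of other nuclei and in 4.90% ± 4.16 of nuclei with T cell markers, which should lack it. The members stood well above this last share, which is taken as the background and rests on few nuclei in SAP 1 and SAP 2. Whether it came from free RNA, doublets or misclassed nuclei was not tested. Without thinning, 49.1% of members and 8.77% of other nuclei held a Lgr5 UMI, at median depths of 2246 and 1751 UMIs.

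Other stem cell genes did not follow Lgr5 as a block. Of the 22 genes of the stem cell list, 13 had a higher summed level in members than in other nuclei, and 4 were higher in all 6 libraries. Over all 28135 detected genes, the background for this and the other list counts, 5149 were higher in members by summed UMIs, 7683 after thinning and 541 in all 6 libraries. Prom1, a membrane protein of stem and progenitor cells, stood at 584 CPM in members and 146 CPM in other nuclei, Nkd1, a feedback target of Wnt signalling, at 156 and 20.5 CPM, and the transcription factor gene Sox9 at 133 and 36.1 CPM. Each of these was higher in 6 of 6 libraries. By contrast, Ascl2, the transcription factor most tied to Lgr5 stem cells, was almost undetected in every set, at 0.757 CPM in members and 6.44 CPM in Olfm4 comparison nuclei after thinning, and at 4.12 CPM in members and 2.14 CPM in other nuclei by summed UMIs. Axin2, a Wnt target, had 65.0 CPM in members and 154 CPM in Olfm4 comparison nuclei. Smoc2, a matrix protein of stem cells, had 304 ± 31.5 CPM in members, 208 CPM in all other nuclei (members higher in 5 of 6 libraries) and 649 CPM in Olfm4 comparison nuclei, and Olfm4 itself 184 ± 63.9 CPM in members and 241 CPM in all other nuclei. The summed level of the stem cell list was 5075 CPM in members, 9317 CPM in Olfm4 comparison nuclei, 3715 CPM in Mmp7 comparison nuclei and 3492 CPM in all other nuclei. Hmga2 (115 against 192 CPM) and Myb (117 against 220 CPM) were lower in members than in other nuclei after thinning. By summed UMIs members were higher in 1 of 6 libraries for Hmga2 and in 2 for Myb. The label of a crypt-base nucleus was thus carried by Lgr5, Prom1, Nkd1 and Sox9 and not by Axin2, Olfm4, Hmga2 or Myb. Position in the crypt was not measured in these libraries.

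Paneth cell genes were the other large block. Of 23 listed genes, 17 were higher in members than in other nuclei, 13 of them in all 6 libraries. Mmp7, the protease that activates alpha-defensins, was present in 48.8% ± 10.2 of members at 1200 UMIs, and stood at 704 ± 211 CPM, between the 1296 ± 325 CPM of the Mmp7 comparison nuclei, which it defines, and the 108 ± 131 CPM of all others. Wnt3, the Wnt ligand of Paneth cells, stood at 227, 194 and 380 CPM in CON members and 146, 117 and 207 CPM in SAP members, with a mean of 212 ± 92.0 CPM against 116 ± 69.0 CPM in Mmp7 comparison nuclei and 17.1 CPM in all others. Nupr1 (161 against 41.0 CPM), Kit (94.4 against 36.8 CPM), the growth factor gene Egf (47.9 against 15.8 CPM) and Ang (43.1 against 19.6 CPM) were each higher in members than in other nuclei in all 6 libraries. Not every gene of the list behaved in that way. The antimicrobial lectins Reg3g (4852 against 12181 CPM) and Reg3b (3260 against 7450 CPM) were lower in members in every library. Alpha-defensins took 41.8% of member UMIs in CON 1, 13.4% in SAP 1 and between 5.00% and 9.07% in the other 4 libraries. Defa24 stood at 60647 CPM in members of CON 1 and 33312 CPM in those of SAP 1, the libraries in which other cell types held Paneth cell RNA. How much of the defensin signal in members was free RNA was not tested. The summed level of the Paneth cell list was 138870 CPM in members, 271910 CPM in Mmp7 comparison nuclei and 60234 CPM in all others.

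**Figure D2:**
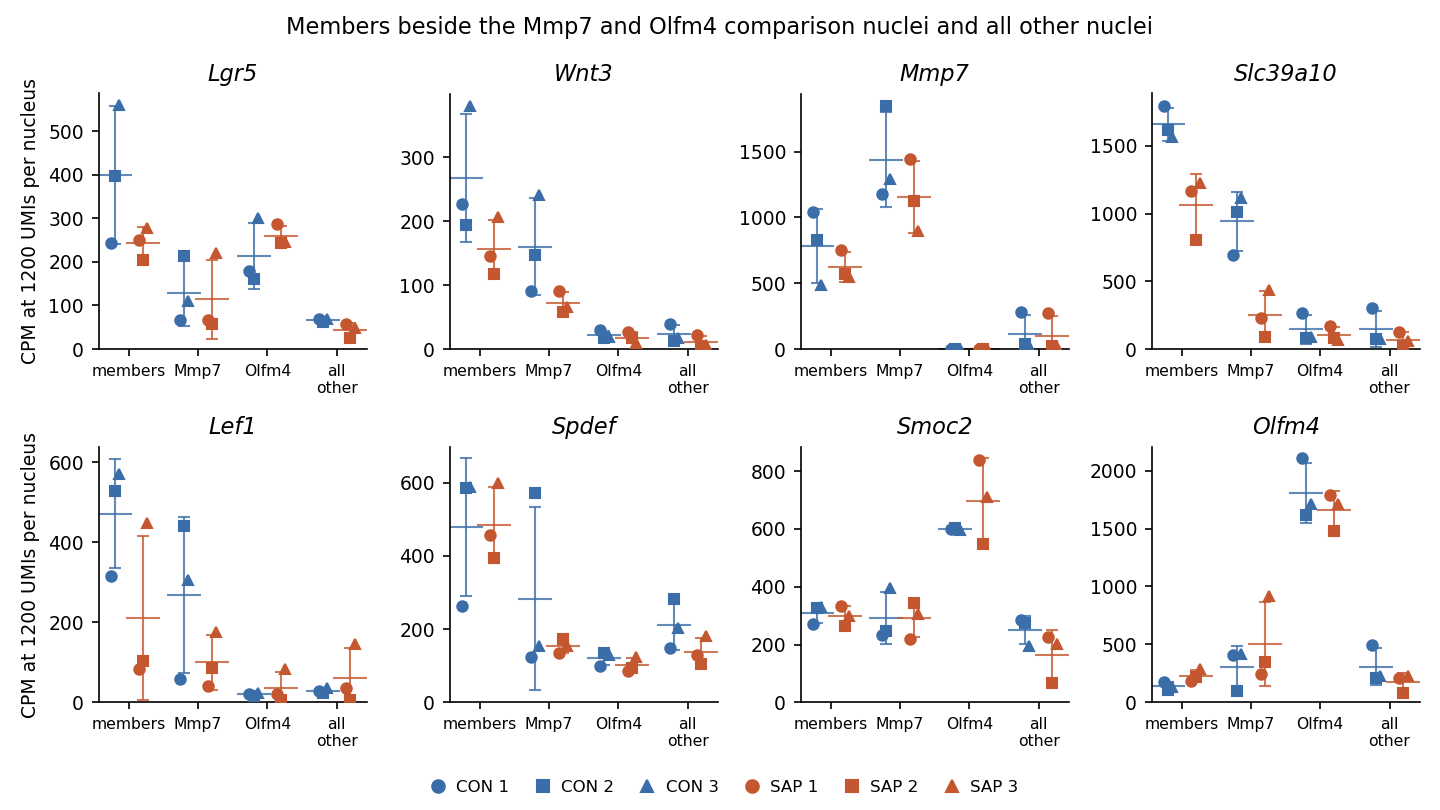
Level of 8 genes, in CPM at 1200 UMIs per nucleus on the vertical axis, in members, Mmp7 comparison nuclei, Olfm4 comparison nuclei and all other nuclei; each point is a library (CON or SAP) and bars give the mean with SD. Slc39a10 averaged 1363 CPM in members and 598 CPM in Mmp7 comparison nuclei, whereas Smoc2 and Olfm4 were highest in Olfm4 comparison nuclei, at 649 and 1735 CPM.

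Outside the rule, the genes with the highest ratio of members to other nuclei depended on how deep nuclei were weighted. By summed UMIs, among genes of at least 100 CPM in members, the first 15 were LOC102551027 (17.5 times), Pnma8b (9.64), Plg (9.53), Gpr158 (9.16), Slc39a10 (8.70), Mmp7 (8.45), Wnt3 (8.22), Scube1 (8.04), Slc30a2 (7.99), Gstm5 (7.29), RatNP-3b (6.86), Defa24 (6.74), Defa9 (6.62), Pla2g2a (6.59) and Tubb2a (6.55). Gstm5 was higher in 5 of 6 libraries and the other 14 in all 6. With every nucleus thinned to 1200 UMIs, LOC102551027, Pnma8b, Plg, Gpr158, Scube1, Wnt3 and Tubb2a were again among the first 15, Slc39a10, Slc30a2, Gstm5, Mmp7, Pla2g2a and the defensins were not, and RGD1564712, Rps6kl1, Dnah12, Chst9, Rab44, Myo15a, Myo16 and Wnk2 took the free places. Slc39a10 stood at 1798, 1617 and 1567 CPM in CON members and at 1167, 804 and 1225 CPM in SAP members, against 598 ± 418 CPM in Mmp7 comparison nuclei and 110 CPM in all others. Slc30a2, a zinc exporter of secretory granules, had 212 ± 73.4 CPM in members, 127 ± 113 CPM in Mmp7 comparison nuclei and 12.0 CPM in Olfm4 comparison nuclei. Scube1, which encodes a secreted and membrane-bound EGF-domain protein, had 540 ± 110 CPM in members, 136 CPM in Mmp7 comparison nuclei and 15.5 CPM in Olfm4 comparison nuclei. Plg, the precursor of plasmin, best known from the liver, had 251 ± 81.6, 114 and 13.1 CPM in the same order. The means of Slc39a10, Slc30a2, Scube1 and Plg were thus higher in members than in both comparison sets, as a description, since the members were picked from these data, whereas those of Mmp7 and of Defa9 (17912 against 28439 CPM) were higher in Mmp7 comparison nuclei.

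Of 23 Notch and lineage factors, 9 were higher in members than in other nuclei by summed UMIs and 11 after thinning, 4 of them in all 6 libraries and 4 others in none, while most markers of enterocytes, goblet cells and T cells stood lower. Spdef, a transcription factor of goblet and Paneth cells, had 482 ± 136 CPM in members, 218 CPM in Mmp7 comparison nuclei and 111 CPM in Olfm4 comparison nuclei. Atoh1, which commits progenitors to secretory fates, had 80.9 ± 36.9, 28.4 and 9.3 CPM, and Gfi1, which acts after it, had 104 CPM in members and 15.3 CPM in other nuclei. Foxa3 (172 against 52.7 CPM) and the stress kinase gene Eif2ak3 (419 against 149 CPM) were also higher in 6 of 6 libraries. Lef1, a transcription factor of the Wnt pathway, had 316, 527 and 572 CPM in CON members and 83, 102 and 449 CPM in SAP members, against 185 CPM in Mmp7 comparison nuclei and 27.7 CPM in Olfm4 comparison nuclei. The mucin gene Muc2 had 455 ± 183 CPM in members and 1015 CPM in all others. Goblet markers, which several secretory cells share, were the richest list in 821 members (67.4%). They were also the richest list in 18096 of all 40970 passing nuclei. None of the 15 detected enterocyte genes was higher in members than in other nuclei, with Fabp2 at 73.2 against 177 CPM and Alpi at 4.79 against 20.04 CPM. None of 11 T cell markers was higher, at a summed 515 against 842 CPM. Of 10 endothelial markers 2 were higher, and the most abundant was Prox1 (225 against 23.4 CPM), a transcription factor that lymphatic endothelium and some secretory epithelium share.

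Despite genes named for cilia in the rule, neither cilium list was raised as a group. Motile cilium genes summed to 86.9 CPM in members and 89.1 CPM in other nuclei, 4 of 25 being higher by summed UMIs and 9 after thinning. Primary cilium and polycystin genes summed to 427 and 500 CPM, with 2 of 19 higher by summed UMIs and 6 after thinning. Dnah12, an axonemal dynein outside both lists, nevertheless had 141 ± 81.7 CPM in members and 7.18 CPM in all others. Although Gfra4 is a co-receptor for persephin and signals through Ret, Ret stood at 2.05 CPM in members and 2.33 CPM in others, and the persephin gene Pspn at 0.684 and 0.419 CPM, both near the limit of detection. The members also held few transcripts of division. None of 42 genes of the G2 and M phases was higher in members, and the list summed to 1003 CPM in members, 1600 CPM in Mmp7 comparison nuclei, 2929 CPM in Olfm4 comparison nuclei and 1906 CPM in all others. At 1200 UMIs, 23.2% ± 11.7 of members held UMIs of at least 2 of these genes, against 55.0% ± 19.0 of Olfm4 comparison nuclei.

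Of the Wnt receptors and targets, 7 of 23 were higher in members by summed UMIs and 12 after thinning, and the list summed to 5184 CPM in members, 4839 CPM in Olfm4 comparison nuclei, 2714 CPM in Mmp7 comparison nuclei and 3637 CPM in all others. The starts of the genes were therefore searched for the letters CTTTGAT, a word that TCF and LEF factors can bind, on both strands. Of the 7 rule genes, Lgr5 and the 15 genes with the highest ratios, 20 of 23 had a promoter window of 300 bases in RefSeq (GRCr8, 250 before to 50 after the start), and 3 held the word, against 1216 of all 33469 windows (3.63%). The stretches that hold it are shown so that its position can be read, 5′ to 3′ on the strand of the gene, with the word in capitals, in each case as the reverse complement.
Defb51: tggaagaaaaATCAAAGgcttttgatg
Mmp7: gtcaggaaacATCAAAGtggctctgag
Defa9: acagaggaacATCAAAGggatcctgag
The word began 112 bases before the start of Defb51, 13 bases before that of Mmp7 and 146 bases before that of Defa9. A match of letters is not a bound site, and binding was not measured.

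Members were not all alike, and the depth of a nucleus went with its make-up. At 1200 UMIs, 624 members held a UMI of Mmp7 and 594 did not. Lgr5 stood at 395 CPM in the first and 340 CPM in the second, and alpha-defensins took 15.9% and 6.90% of UMIs, with 249 of the 624 coming from CON 1. Split the other way, 368 members with a Lgr5 UMI had 763 CPM of Mmp7 and 7.53% alpha-defensin UMIs, and 850 without one had 757 CPM and 13.3%. These values pool libraries that differ in both genes and in depth. By depth, however, 219 members above 5000 UMIs had 98.9 CPM of Lgr5 and 29.7% alpha-defensin UMIs, whereas 504 members of 1200 to 2000 UMIs had 448 CPM and 6.73%. Of the 219 deep members, 157 came from CON 1, so summed values of that library lean on nuclei rich in defensins.

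The share of members was lower in every SAP library than in every CON library. It was 4.25% in CON 1 (exact 95% interval 3.85 to 4.68%), 4.27% in CON 2 (3.78 to 4.80%) and 4.09% in CON 3 (3.68 to 4.53%). In SAP 1, SAP 2 and SAP 3 it was 1.25% (0.898 to 1.70%), 0.955% (0.724 to 1.24%) and 1.48% (1.23 to 1.77%). The intervals cover counting error only. The group means were 4.20% ± 0.0981 (SD, n = 3) and 1.23% ± 0.264, a ratio of 0.293, with no overlap. The log odds differed by −1.27 ± 0.43 (SE), which limma on logit shares over 15 classes of nuclei gave an unadjusted p of 0.0233 and an adjusted p of 0.304, and the exact permutation test gave its smallest possible p for 3 against 3, 0.1. The difference thus did not pass the test after adjustment. Shares of 1 class move when another class grows or is better recovered, so fewer members and more of other nuclei cannot be told apart.

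How far the rule itself set this share was examined by changing it. Pkhd1 and Cfap210 had lower SAP values where they had not chosen the nuclei, which was not tested. Pkhd1 stood at 243, 346 and 492 CPM in CON and 92.6, 47.2 and 78.6 CPM in SAP. Cfap210 stood at 163, 334 and 292 CPM in CON and 154, 66.7 and 97.6 CPM in SAP. The groups did not overlap for either. These SAP values rest on few thinned UMIs, 4, 3 and 10 for Pkhd1 and 7, 4 and 13 for Cfap210. For Habp2 (494 ± 207 against 509 ± 256 CPM) and Samd5 (415 ± 169 against 403 ± 146 CPM) the means were near each other relative to their spread. Gfra4 (699 ± 235 against 577 ± 158 CPM), Kif19 (562 ± 291 against 397 ± 194 CPM) and Defb51 (63.7 ± 46.4 against 49.4 ± 24.1 CPM) had lower SAP means with overlapping groups. With Pkhd1 and Cfap210 left out of the rule, the shares were 2.69%, 3.34% and 3.22% in CON and 1.03%, 0.754% and 1.28% in SAP. With every nucleus thinned to 1200 UMIs they were 1.44%, 2.92% and 2.79% in CON and 0.784%, 0.318% and 0.849% in SAP. The SAP libraries lay below the CON libraries under both. At that depth, the SAP shares lay within the interval of the pooled T cell marker background given above (0.273 to 0.873%) and the CON shares above it. Taken library by library that background was poorly determined, and its exact 95% interval held the thinned share of every library but CON 3, whose interval ended at 1.42%. These intervals treat nuclei as replicates and cover counting error only, and no share was tested against this background. Whether the thinned SAP shares, or those of CON 1 and CON 2, exceeded background was thus not decided. The comparison does not show that such nuclei were absent in SAP. The other crypt sets did not separate the groups: Olfm4 comparison nuclei made up 7.94% ± 2.19 and 4.68% ± 2.61 (exact permutation p = 0.3), and Mmp7 comparison nuclei 4.77% ± 7.16 and 3.19% ± 4.68 (exact permutation p = 0.7), the latter being mostly nuclei of CON 1 and SAP 1. Whether the SAP difference was larger in members than in these sets was not tested. Mitochondrial UMIs, a sign of nucleus quality, had medians over passing nuclei of 0.700%, 0.125% and 0.218% for CON and of 1.84%, 1.29% and 0.387% for SAP. With the limit at 1% instead of 5%, the shares were 4.60% ± 0.580 and 1.85% ± 0.282.

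**Figure D3:**
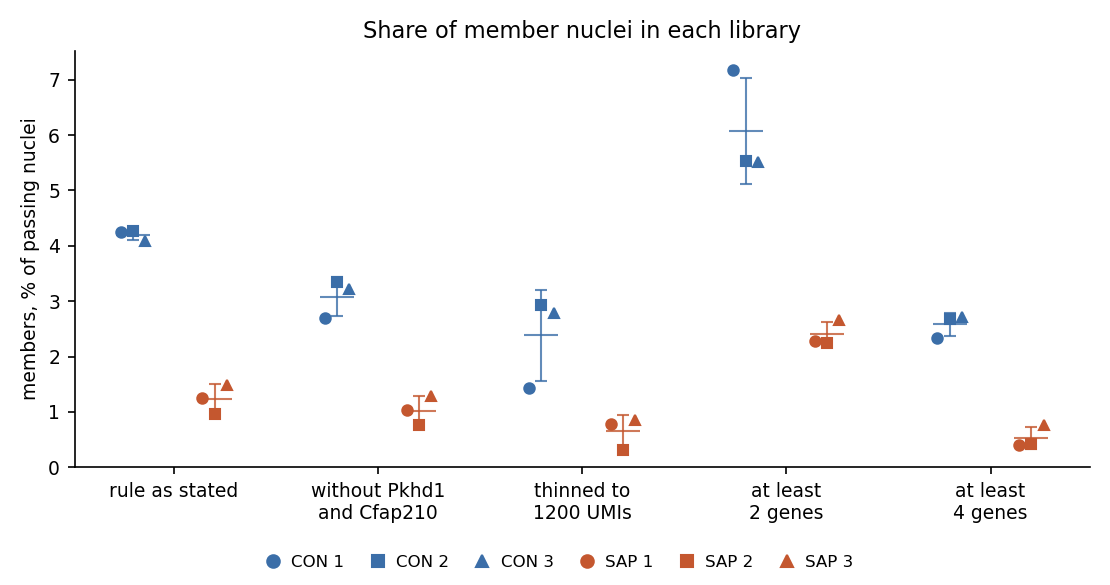
Members as a percentage of passing nuclei on the vertical axis, for the rule as stated and for changed rules on the horizontal axis; each point is a library (CON or SAP) and bars give the mean of 3 with SD. By the rule as stated the 3 CON libraries lay between 4.09% and 4.27% and the 3 SAP libraries between 0.955% and 1.48%.

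Within the members, SAP rats were compared with CON rats on UMIs summed per library. The make-up of the members differed by group. At least 4 of the rule genes were held by 216, 168 and 229 of the 393, 267 and 344 CON members. In SAP they were held by 13, 25 and 60 of the 40, 57 and 117 members. Levels of genes such as Lgr5 and Slc39a10 rose with the number held, so the sums do not compare like nuclei. The part of this in the values below was not tested. No gene passed in either direction: 0 of 8327 tested genes (0%) had an adjusted p under 0.05 in edgeR's quasi-likelihood test with Benjamini-Hochberg adjustment. An unadjusted p under 0.05 was reached by 405 (4.86%), 215 of them higher in SAP (2.58%) and 190 lower (2.28%). Groups did not overlap for 429 genes with SAP higher (5.15%) and 418 with SAP lower (5.02%). DESeq2 on the same sums called 8 genes, with Thbs1 and LOC120095958 higher and St8sia6, Cd9, Car8, Ccdc57, Mt1 and Rap1gap lower. Leaving out SAP 1, the smallest sum, also gave 0 calls, and the values below are described with their errors and not as changed genes. Genes given outside the lists and the study's own 16 genes were picked after their values were seen.

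St8sia6, a sialyltransferase, had the smallest p. It stood at 115, 145 and 142 CPM (here TMM-scaled CPM of the sums) in CON and at 0, 5.63 and 12.3 CPM in SAP, so that the groups lay far apart. The log2 fold change was −3.93 ± 0.46 (SE), with an edgeR adjusted p of 0.0509, and in Olfm4 comparison nuclei of the same rats the same gene had −4.92 ± 0.52 and an edgeR adjusted p of 0.0498, the only call there (1 of 11427, 0.00875%). Cd9, a tetraspanin, had 218, 149 and 218 CPM against 58.8, 25.3 and 54.3 CPM, a log2 fold change of −2.16 ± 0.37 (edgeR adjusted p = 0.425). Car8, a protein of the carbonic anhydrase family, had 312, 382 and 332 CPM against 132, 67.5 and 112 CPM (−1.78 ± 0.32). For Cpt1a, which brings fatty acids into mitochondria, the SAP values of 324, 264 and 270 CPM lay above the CON values of 115, 96.9 and 117 CPM (1.36 ± 0.25, edgeR adjusted p = 0.545). Thbs1, the matrix protein thrombospondin 1, had 24.9, 12.3 and 42.3 CPM in CON and 176, 90.0 and 131 CPM in SAP (2.20 ± 0.45). The groups did not overlap for any of these genes. The metallothionein gene Mt1 also lay apart, at 399, 369 and 162 CPM against 0, 59.1 and 10.5 CPM (−3.45 ± 0.72, edgeR adjusted p = 0.815, and −5.11 without SAP 2), and so did Rap1gap, at 335, 1017 and 519 CPM against 147, 64.7 and 179 CPM (−2.27 ± 0.51). With every member thinned to 1200 UMIs, Mt1 overlapped, at 108, 459 and 33.9 CPM in CON and 0, 43.9 and 14.2 CPM in SAP.

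**Figure D4:**
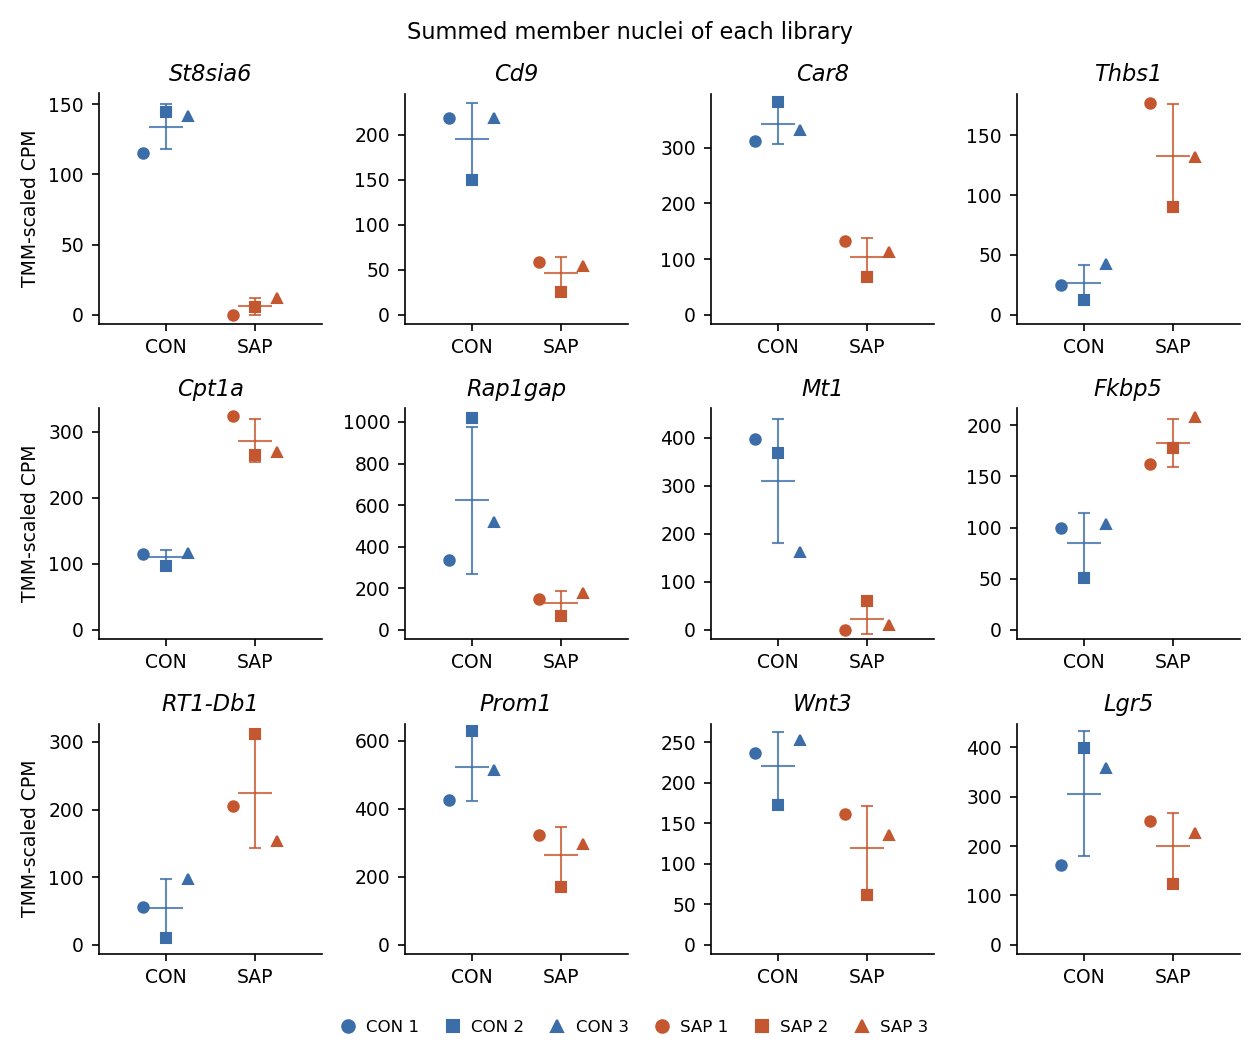
TMM-scaled CPM of the summed members on the vertical axis for 12 genes, with CON and SAP on the horizontal axis; each point is a library and bars give the mean of 3 with SD. St8sia6, Cd9, Car8, Mt1 and Rap1gap lay lower and Thbs1, Cpt1a and RT1-Db1 higher in all SAP libraries than in any CON library, and the groups overlapped for Lgr5.

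Stem cell and Wnt genes had no common direction in the members. Of 19 tested stem cell genes 8 had a higher and 11 a lower value in SAP (median log2 fold change −0.09), beside 50.2% of all tested genes higher and a median of 0.0032. Lgr5 had 161, 398 and 357 CPM in CON and 250, 124 and 226 CPM in SAP, overlapping groups with a log2 fold change of −0.64 ± 0.41 (edgeR unadjusted p = 0.149), which was −1.01 without CON 1 and −0.39 without SAP 2. Prom1 had 426, 628 and 513 CPM against 324, 169 and 296 CPM (−1.01 ± 0.34, edgeR unadjusted p = 0.0139), with no overlap. Hmga2, a chromatin protein of proliferating cells, had 172, 134 and 133 CPM against 103, 84.4 and 102 CPM (−0.62 ± 0.27, edgeR unadjusted p = 0.0449). Olfm4 (0.64, but 0.13 without SAP 3), Rnf43 (0.30), Myb (−0.07) and Smoc2 (−0.14) had log2 fold changes with an unadjusted edgeR p above that level. Among Wnt receptors and targets 12 of 17 were higher, with a median of 0.30 (0.091 without SAP 3 and 0.11 without CON 2), Tcf7l2 at −0.46 and Lef1 at −1.10 ± 0.52, which ranged from −1.94 without SAP 3 to −0.69 without SAP 2. Lef1 stood at 214, 443 and 410 CPM against 147, 61.9 and 277 CPM, and SAP 3 lay above CON 1.

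Paneth cell genes leaned to lower values, a lean that rested on CON 1. Of 18 tested, 2 were higher and 16 lower in SAP, with a median of −0.77. Without CON 1 the count was 9 and 9 with a median of 0.06, and without both CON 1 and SAP 1 it was 8 and 10 with −0.13. Pla2g2a, the secreted phospholipase A2, had 41290, 8606 and 4867 CPM against 4148, 3165 and 3363 CPM (−2.36 ± 0.89, edgeR unadjusted p = 0.0237), and its log2 fold change was −0.97 without CON 1 and −1.06 without CON 1 and SAP 1. Defa24, at 170515, 10831 and 27546 CPM against 35902, 28416 and 23565 CPM (−1.25), turned to 0.43 without CON 1 and SAP 1, and Defal1, at −1.72, to 0.28. Wnt3 had 237, 172 and 252 CPM in CON and 162, 61.9 and 135 CPM in SAP, with no overlap (−0.97 ± 0.36, edgeR unadjusted p = 0.0232, adjusted p = 0.954). The zinc exporter gene Slc30a2 had 346, 251 and 174 CPM against 176, 64.7 and 130 CPM (−1.16), and here SAP 1 lay just above CON 3. Without CON 1 and SAP 1 the log2 fold change was −1.10 for Wnt3 and −1.12 for Slc30a2. Without SAP 2 it was −0.63 for Wnt3 and −0.82 for Slc30a2. Itln1, an antimicrobial lectin of Paneth and goblet cells, was 1 of the 2 genes of the list with a higher value: 87.4, 20.001 and 714 CPM in CON and 13590, 9573 and 4057 CPM in SAP (5.05 ± 1.27, edgeR adjusted p = 0.897, 4.21 without CON 1 and SAP 1, and 7.34 without CON 3). In all other nuclei thinned Itln1 stood at 97, 51 and 205 CPM in CON and 5683, 574 and 191 CPM in SAP, against 12875, 7807 and 3319 CPM in thinned SAP members, so that the transcript was also widespread in other nuclei of SAP 1. Lectin genes of the Itln family share sequence, and how the counting split them is not given in the sources used here.

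MHC class II genes, which present antigen and which crypt epithelium can express, had higher values in SAP throughout. All 8 tested members of the list were higher, 7 without overlap, with a median log2 fold change of 1.21. Cd74, the invariant chain, had 512, 103 and 382 CPM in CON and 647, 1016 and 575 CPM in SAP (1.17 ± 0.53, edgeR unadjusted p = 0.0524). Its log2 fold change was 0.73 without CON 2 and 1.59 without CON 1. RT1-Db1 had 56.1, 10.8 and 96.7 CPM against 206, 312 and 154 CPM (2.00 ± 0.63, edgeR unadjusted p = 0.0129, adjusted p = 0.953), and RT1-Da had 1.14. Both genes had higher SAP values outside the members as well: in all other nuclei thinned RT1-Db1 stood at 102, 38.4 and 153 CPM in CON and 449, 673 and 273 CPM in SAP, above the members of each library, and Cd74 at 746, 264 and 663 against 1416, 1722 and 970 CPM. The part of free RNA in the member values was not tested. Among MHC class I genes 8 of 19 were higher and 11 lower (median −0.07), a lean that turned without CON 1, where 13 of 21 were higher (median 0.44), and RT1-A2 had 0.83 and RT1-CE5 1.68 with 174, 268 and 296 CPM against 618, 1359 and 375 CPM. Without SAP 2 these were 0.48 and 0.97, and RT1-A2 was 1.33 without CON 1. Class I genes of the rat are near-identical copies, so a value of a single one is uncertain. Interferon response genes had lower values in 7 of 12 (median −0.28), with Parp14 at 0.40.

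Genes of cell division had mostly lower values in SAP. Of 24 tested genes of the G2 and M phases 23 were lower and 1 higher, 6 of them without overlap, with a median of −0.79, which ranged from −0.39 without SAP 2 to −1.35 without SAP 3, and Lbr, the most abundant, had −0.11. The share of nuclei with at least 2 genes of the list was also lower in SAP outside the members, at 68.9% and 41.1% of Olfm4 comparison nuclei and 53.8% and 23.1% of all others (CON and SAP means), beside 29.9% and 16.5% of members. The S phase list had 11 lower and 8 higher (median −0.20, Pola1 −0.28), a median whose sign depended on the setting. Genes induced by glucocorticoids were higher in 9 of 10, with a median of 0.55. Fkbp5, a chaperone of steroid receptors, had 99.4, 50.8 and 104 CPM against 162, 177 and 208 CPM with no overlap (1.12 ± 0.32, edgeR unadjusted p = 0.00596, adjusted p = 0.897), and the receptor gene Nr3c1 had 0.27. Thinned members did not separate for Fkbp5, at 91.2, 49.9 and 89.6 CPM in CON and 208, 43.9 and 199.4 CPM in SAP. In all other nuclei thinned Fkbp5 stood at 107, 73.3 and 152 CPM in CON and 199.5, 218 and 287 CPM in SAP. Immediate early genes were higher in 9 of 10 (median 0.36, and in 7 of 12 with 0.13 without CON 3), with Klf4 the one that was lower (−0.93, edgeR unadjusted p = 0.0391). No gene of these lists passed adjustment.

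Fibronectin, integrin and matrix genes were higher in 14 of 17 (median 0.40, and 0.19 without SAP 2), with Fn1 at 0.53, Itga3 at 0.29, Itgb1 at 0.29 and Itga6 at 0.02. Fn1 became −0.022 without SAP 1 and Itga3 −0.11 without SAP 2. The unfolded protein response list had 9 higher and 13 lower (median −0.08, Eif2ak3 0.37), and the metallothionein and zinc list 4 and 4. Of 6 genes of NF-kB and inflammation 4 were higher (Nfkb1 0.46), of 8 cilium and polycystin genes 5, of 10 Notch and lineage genes 4 (Spdef −0.45), and of 6 niche ligands 3. No gene of the GDNF family or motile cilium list was abundant enough to be tested. The 16 genes that the study names had 8 higher and 8 lower values (median 0.11), and since the study chose them on these rats they are not independent evidence of a direction. Beyond those given above they were Muc2 (−0.86, edgeR unadjusted p = 0.0341), Dmbt1 (−0.62), Ly6al (0.70), Anpep (0.78) and Apoa1 (2.17). With 1 library left out, Dmbt1 ranged from −0.85 without CON 3 to −0.19 without CON 1, Ly6al from 0.28 without CON 2 to 1.65 without CON 1, Anpep from 0.24 without SAP 2 to 1.36 without CON 3, and Apoa1 from 1.67 without CON 2 to 3.29 without CON 3.

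Lists of markers of other cell types also leaned higher or lower in SAP members, and none of these genes passed adjustment. Enterocyte markers were higher in 11 of 13 (median 0.98, and 0.25 without SAP 2), and their summed level at 1200 UMIs was 1204, 1342 and 2960 CPM in CON members and 3292, 6433 and 2058 CPM in SAP members. Apoa1, an apolipoprotein of enterocytes, had 187, 49.2 and 548 CPM against 1559, 1750 and 254 CPM in members, and in all other nuclei thinned it stood at 469, 120 and 1566 CPM in CON and 5165, 4250 and 1160 CPM in SAP, higher than the members in every library. T cell markers were higher in 7 of 7 (median 0.65), but without SAP 3 in 1 of 7 (median −0.33). Goblet markers were lower in 9 of 11 (median −0.30), a lean that also rested on CON 1 (7 of 11 and −0.048 without it, and −0.80 without SAP 1), tuft markers higher in 5 of 5 (0.97), and smooth muscle markers lower in 3 of 3 (−1.79). Their part in the results above was not tested.

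To see which differences were not shared by other crypt nuclei of the same rats, the SAP effect in members was set against that in Olfm4 comparison nuclei in 1 edgeR fit with the library as a block. Of 10813 tested genes 8 passed (0.074%), and 633 had an unadjusted p under 0.05 (5.85%). Ccdc57, a coiled-coil protein, had 158, 266 and 282 CPM in CON members and 15.1, 48.6 and 73.3 CPM in SAP members, and in Olfm4 comparison nuclei 56.9, 89.0 and 75.2 against 85.6, 103 and 68.4 CPM. The difference of effects was −2.15 ± 0.32 (log2, SE, edgeR adjusted p = 0.00462). Lef1 had −1.99 ± 0.32 (edgeR adjusted p = 0.00713), with Olfm4 comparison values of 19.6, 16.1 and 19.2 CPM in CON and 32.6, 11.4 and 61.8 CPM in SAP. Lymphocytes express Lef1 too, and in nuclei with none of the rule genes it stood at 145 CPM in SAP 3, where lymphoid nuclei were most numerous, and at 3.40 to 33.3 CPM in the other libraries. The part of such nuclei in the Lef1 values was not tested. Cd9 had −2.01 ± 0.38 (edgeR adjusted p = 0.0383) and 35.6, 15.01 and 20.2 against 36.7, 6.53 and 27.0 CPM in Olfm4 comparison nuclei, where the groups overlapped. Thbs1 was the 1 gene of the 8 with a more positive effect in members, 2.05 ± 0.36 (edgeR adjusted p = 0.0144), and its Olfm4 comparison values of 54.4, 47.2 and 56.5 against 61.1, 34.3 and 70.1 CPM overlapped too.

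The other 4 genes differed in how the difference arose. Csgalnact1, an enzyme that starts chondroitin sulfate chains, had 148, 287 and 269 CPM in CON members and 303, 261 and 194 CPM in SAP members, overlapping, whereas Olfm4 comparison nuclei had 13.5, 43.9 and 47.7 against 85.6, 171 and 102 CPM. Its difference of −1.90 ± 0.28 (edgeR adjusted p = 0.00462) thus lay on the side of the Olfm4 comparison nuclei. Necab1, a calcium-binding protein, had 73.3, 55.3 and 129 against 15.1, 30.4 and 25.7 CPM in members (−2.70 ± 0.52, edgeR adjusted p = 0.0383). Gsdme, a gasdermin that can form membrane pores, had −1.25 ± 0.25 (edgeR adjusted p = 0.0440), and its values were led by SAP 2, at 428 CPM in members and 431 CPM in Olfm4 comparison nuclei. Rps6kc1 had −1.20 ± 0.24 (edgeR adjusted p = 0.0440), with 190, 316 and 258 against 182, 170 and 101 CPM in members. Against Mmp7 comparison nuclei in place of Olfm4 comparison nuclei no gene passed, with Cd9 at 0.13 and Lef1 at 0.22. The 8 genes therefore separate members from the Olfm4 comparison nuclei and were not shown to separate them from nuclei with Mmp7. Without SAP 3, only 1 of the 8 still passed.

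**Figure D5:**
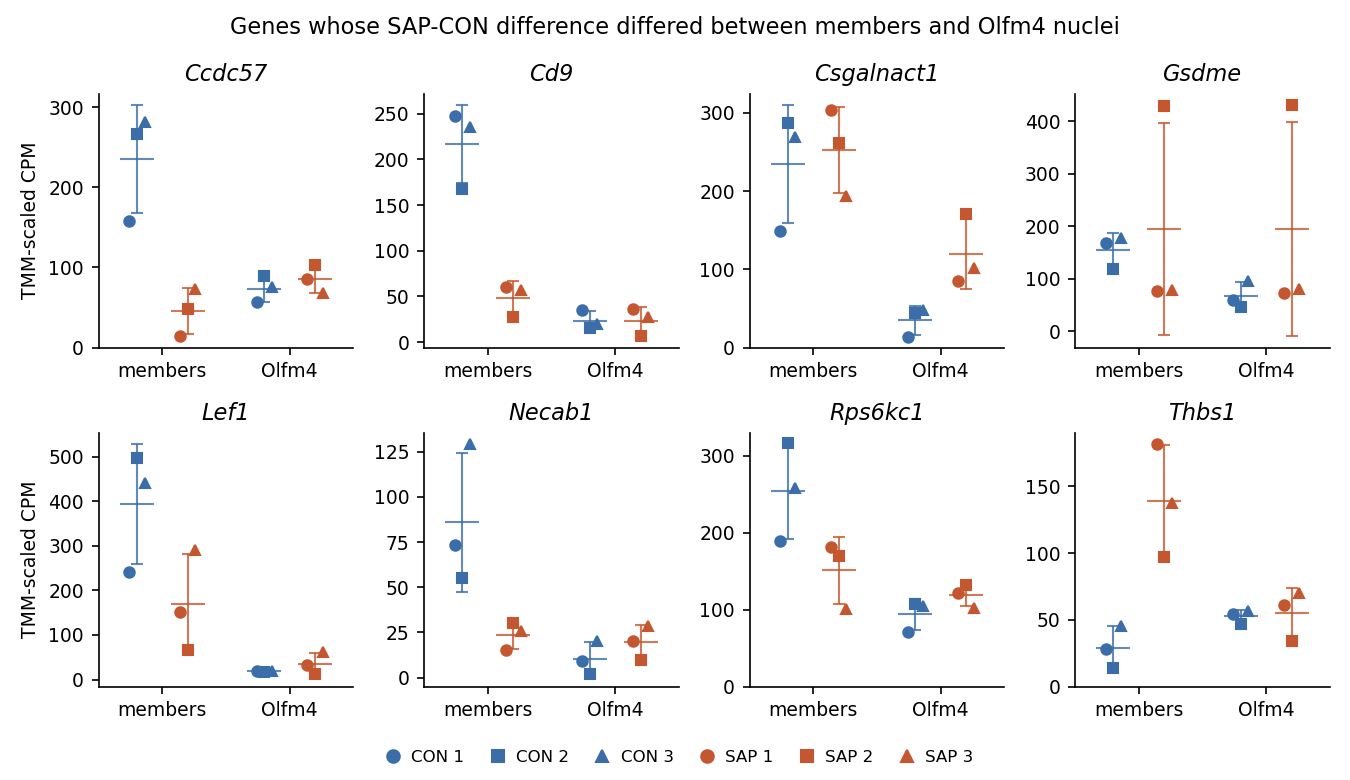
TMM-scaled CPM on the vertical axis for the 8 genes that passed, in members and in Olfm4 comparison nuclei; each point is a library (CON or SAP) and bars give the mean of 3 with SD. Ccdc57, Cd9 and Necab1 lay lower in SAP members than in CON members, Thbs1 lay higher, and Csgalnact1 lay higher in SAP only among Olfm4 comparison nuclei.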

How the data were processed

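The deposited files hold UMI counts per gene and nucleus, which the authors made with dnbc4tools v2.1.3 and, per the submitters' processing notes, Seurat 4.3.0 and mRatBN7.2. The 28282 genes of the tables and 90461 barcodes were filtered as the report states. Members and lists were chosen with earlier results of these data known. Named genes were the study's 16, Lgr5 and the 3 most abundant tested genes of each list, of which the most abundant and those with an unadjusted p under 0.05 are printed. Sums per library were tested with edgeR 4.0.16 (filterByExpr, TMM scaling, robust quasi-likelihood, calls at adjusted p under 0.05 and log2 change of at least 0.5) in R 4.3.3, with DESeq2 1.42.0 as an alternative, and shares with limma 3.58.1 (offset 0.5 nuclei). The procedure was tested on simulated data. Rats are the replicates. Other steps used Python 3.11.15, numpy 2.4.6, scipy 1.17.1 and pandas 2.3.3. CON 2 and SAP 1 list barcodes down to 545 and 502 UMIs, the others from at least 1000. The rule genes were not tested in members. A few values that the naming rule covers are not reported here.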

Additional observations from a re-analysis of the deposited data

Results flagged for a closer look

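In 8 genes the SAP effect in the Habp2 Gfra4 Lgr5 nuclei differed from that in Olfm4 comparison nuclei of the same rats by a test of the difference itself. The differences (log2, members minus Olfm4 comparison nuclei) were −2.15 for Ccdc57, −2.01 for Cd9, −1.90 for Csgalnact1, −1.25 for Gsdme, −1.99 for Lef1, −2.70 for Necab1, −1.20 for Rps6kc1 and 2.05 for Thbs1, all with an edgeR adjusted p under 0.05. Without SAP 3, 2 genes passed and 1 of them was among the 8, and without CON 2, 80 passed. With each nucleus thinned to 1200 UMIs, 27 passed, with 7 of the 8 among them.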

How the results depend on the processing

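The share of members kept its direction without passing adjustment in every alternative run, with log odds differences from −1.63 (at least 4 rule genes) to −0.92 (mitochondrial limit of 1%). Limma adjusted p ranged from 0.0682, without SAP 3, to 0.697, without CON 1 and SAP 1. Against 0 genes by edgeR, DESeq2 called 8, no filter on low counts 95, at least 2 rule genes 1, at least 4 rule genes 2, the rule without Pkhd1 and Cfap210 1, leaving out the 5% of nuclei with most UMIs 3, and leaving out alpha-defensin and Pla2g2a UMIs 1. Leaving out 1 library at a time gave 0 to 1 calls, the 1 being St8sia6 without CON 1. For the difference between members and Olfm4 comparison nuclei, 8 calls became 41 without the filter, 0 with Mmp7 comparison nuclei, 27 with thinned nuclei, and 2 to 80 with 1 library left out. The alternatives with thinned sums, without defensin UMIs and without CON 1 and SAP 1 together were chosen after seeing the data. The cause of these shifts was not tested.

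CON and SAP libraries share replicate numbers, but same-numbered libraries deviated together with r of only 0.0303, 0.0562 and 0.13, so the numbers were not taken as pairs, although each library correlated best with its own number. With the replicate block 0 genes were called, and the log odds of the share stayed at −1.27 (limma adjusted p = 0.268). MHC class I genes were higher in 13 of 19 with the block (median 0.27).

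Of 47 genes under 18 settings, 13 turned in sign somewhere, most of them close to no difference. Without CON 1 and SAP 1, log2 fold changes became 0.28 for Defal1, 0.43 for Defa24, 0.27 for Lbr, 0.12 for Myb, 0.0067 for Smoc2, −0.10 for Eif2ak3 and −0.015 for Fn1. With thinned members Spdef became 0.0067, Nr3c1 −0.31 and Itga6 −0.043. With at least 4 rule genes Nr3c1 became −0.13, Itgb1 −0.15, Myb 0.028 and Itga6 −0.041. Itga6 was also −0.14 without the filter, −0.099 with at least 2 rule genes, −0.062 without Pkhd1 and Cfap210, −0.16 at the 1% mitochondrial limit (Myb 0.050), −0.033 without the nuclei of most UMIs and −0.019 without defensin UMIs. With 1 library or with CON 1 and SAP 1 left out, Defal1 ranged from −2.26 to 0.65, Defa24 from −1.77 to 0.58, Pola1 from −0.81 to 0.024, Lbr from −1.001 to 0.27, Itga6 from −0.098 to 0.067, Myb from −0.25 to 0.12, Fn1 from −0.022 to 0.87, Itga3 from −0.11 to 0.48 and Smoc2 from −0.34 to 0.0067. The medians of the stem cell, interferon response and unfolded protein response lists also took either sign among the alternatives, up to 0.043 without SAP 2, 0.21 without CON 2 and 0.065 without CON 1. Against Mmp7 comparison nuclei the difference of effects was 0.13 for Cd9 and 0.22 for Lef1.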
